A study of Mus musculus with 24 samples.

Results

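The Slc25 genes encode the mitochondrial carriers, the proteins that move nucleotides, phosphate, amino acids, acylcarnitines and cofactors across the inner mitochondrial membrane. They were measured here as mRNA in mouse skeletal muscle. Members were the array probes, control spots left out, whose design name is Slc25a followed by a number. This rule found 104 of 56605 probes, which stand for 47 gene names. Of these probes, 75 passed the filter on dim signal, so 39 of the 47 names were measured, among 19937 measured names in all.

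The study held 24 one-colour Agilent arrays from 3 groups of 8 mice. HFD_O3 mice had a high fat diet and an omega-3 lineage, HFD_Cont mice a high fat diet and a control lineage, and STD_Cont mice the low fat control diet and the control lineage. No group had the low fat diet with the omega-3 lineage. HFD_O3 and STD_Cont differ in both, so diet and lineage cannot be told apart in that comparison. How the omega-3 lineage was made, and the strain, sex, age, time on diet and muscle, were not stated in the labels. All 11 skeletal muscle fibre markers on the list (Acta1, Ckm, Myh4 and others) were measured. Values are log2 spot signals minus each array's 75th percentile, so a value of 0 is the level of that percentile, and levels of different probes are not comparable.

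Carriers of this family share a fold of repeated membrane-spanning pairs and mostly work as exchangers: one substrate leaves the matrix as another enters. In muscle fibres the adenine nucleotide carrier trades matrix ATP for cytosolic ADP, the phosphate carrier brings in phosphate, and the carnitine-acylcarnitine carrier brings in fatty acids for oxidation. A subgroup with calcium-binding domains exchanges ATP-magnesium for phosphate and so sets the size of the matrix adenine nucleotide pool.

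A promoter window is shown for each of the 2 carriers whose mRNA passed the test in any comparison. Both come from RefSeq on GRCm38.p6 and hold the 250 bases before an annotated start, 5′ to 3′ on the gene's strand, which is the minus strand for both genes. For Slc25a25, 3 starts are annotated. The window printed, chr2:32424067-32424316, holds 1 copy of TGACGTCA, the full cyclic AMP response element, which begins 150 bases before the start and stands in capitals. The windows at the other 2 starts hold 0 copies. These letters read the same on both strands and occur in 1.55% of all 32851 windows of this length. The printed window is thus the 1 of 3 that holds these letters, while the 1.55% is a share per window. The Slc25a30 window, chr14:75787038-75787287, holds none, and its capitals mark a CCAAT box (CCAAT or its reverse complement), found in 33.8% of windows. The printed Slc25a25 window also holds 1 CCAAT box, left in lower case. A match describes the letters only.
Slc25a25: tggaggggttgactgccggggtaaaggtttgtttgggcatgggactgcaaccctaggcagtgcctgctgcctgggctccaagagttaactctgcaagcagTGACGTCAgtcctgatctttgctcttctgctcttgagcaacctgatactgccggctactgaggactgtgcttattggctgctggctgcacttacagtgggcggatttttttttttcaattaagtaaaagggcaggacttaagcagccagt
Slc25a30: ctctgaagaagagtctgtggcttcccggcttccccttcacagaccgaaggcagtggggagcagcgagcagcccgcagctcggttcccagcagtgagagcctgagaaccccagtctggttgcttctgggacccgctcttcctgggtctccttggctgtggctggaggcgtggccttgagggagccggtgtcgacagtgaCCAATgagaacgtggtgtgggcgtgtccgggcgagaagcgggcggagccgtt
The third sequence is the array probe A_55_P2032445 of Slc25a37, one of the pair of probes for that gene whose signal split the arrays within groups. It lies on mm9, the build of the array annotation, at chr14:69902797-69902856, minus strand, and no letters are marked.
Slc25a37: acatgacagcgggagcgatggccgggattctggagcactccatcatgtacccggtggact

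Most measured members differed by less than 0.25 log2 units: 36 of 39 for HFD_O3 against STD_Cont, 36 for HFD_O3 against HFD_Cont and 31 for HFD_Cont against STD_Cont. The share of all names within that bound was not computed. In the same order, the median absolute change was 0.093 over the members (all names 0.076), 0.069 (all names 0.072) and 0.119 (all names 0.087). In HFD_O3 against STD_Cont muscle, 1 of 39 measured members rose (Slc25a25), 0 fell and 38 did not pass the test (limma with Benjamini-Hochberg adjustment over all names, adjusted p under 0.05). The background was 0.597% of all names (0.406% higher and 0.191% lower). In HFD_Cont against STD_Cont muscle, 0 rose, 1 fell (Slc25a30) and 38 did not pass, against a background of 2.91% (1.43% higher and 1.48% lower). In HFD_O3 against HFD_Cont muscle, 0 of 39 passed and the background was 0.0%, that is, 0 of all measured names. In that comparison 3 members had an unadjusted p under 0.05, a share of 7.69% beside 7.08% of all names. The other comparisons had 5 such members (12.8%, beside 11.2%) for HFD_O3 against STD_Cont and 11 (28.2%, beside 16.6%) for HFD_Cont against STD_Cont. The median log2 change over the members was -0.01 (all names -0.02) for HFD_O3 against STD_Cont, -0.03 (all names -0.01) for HFD_O3 against HFD_Cont and 0.03 (all names 0.00) for HFD_Cont against STD_Cont. The first and last of these share the STD_Cont arrays, and each shares a group with the middle one.

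**Figure D1:**
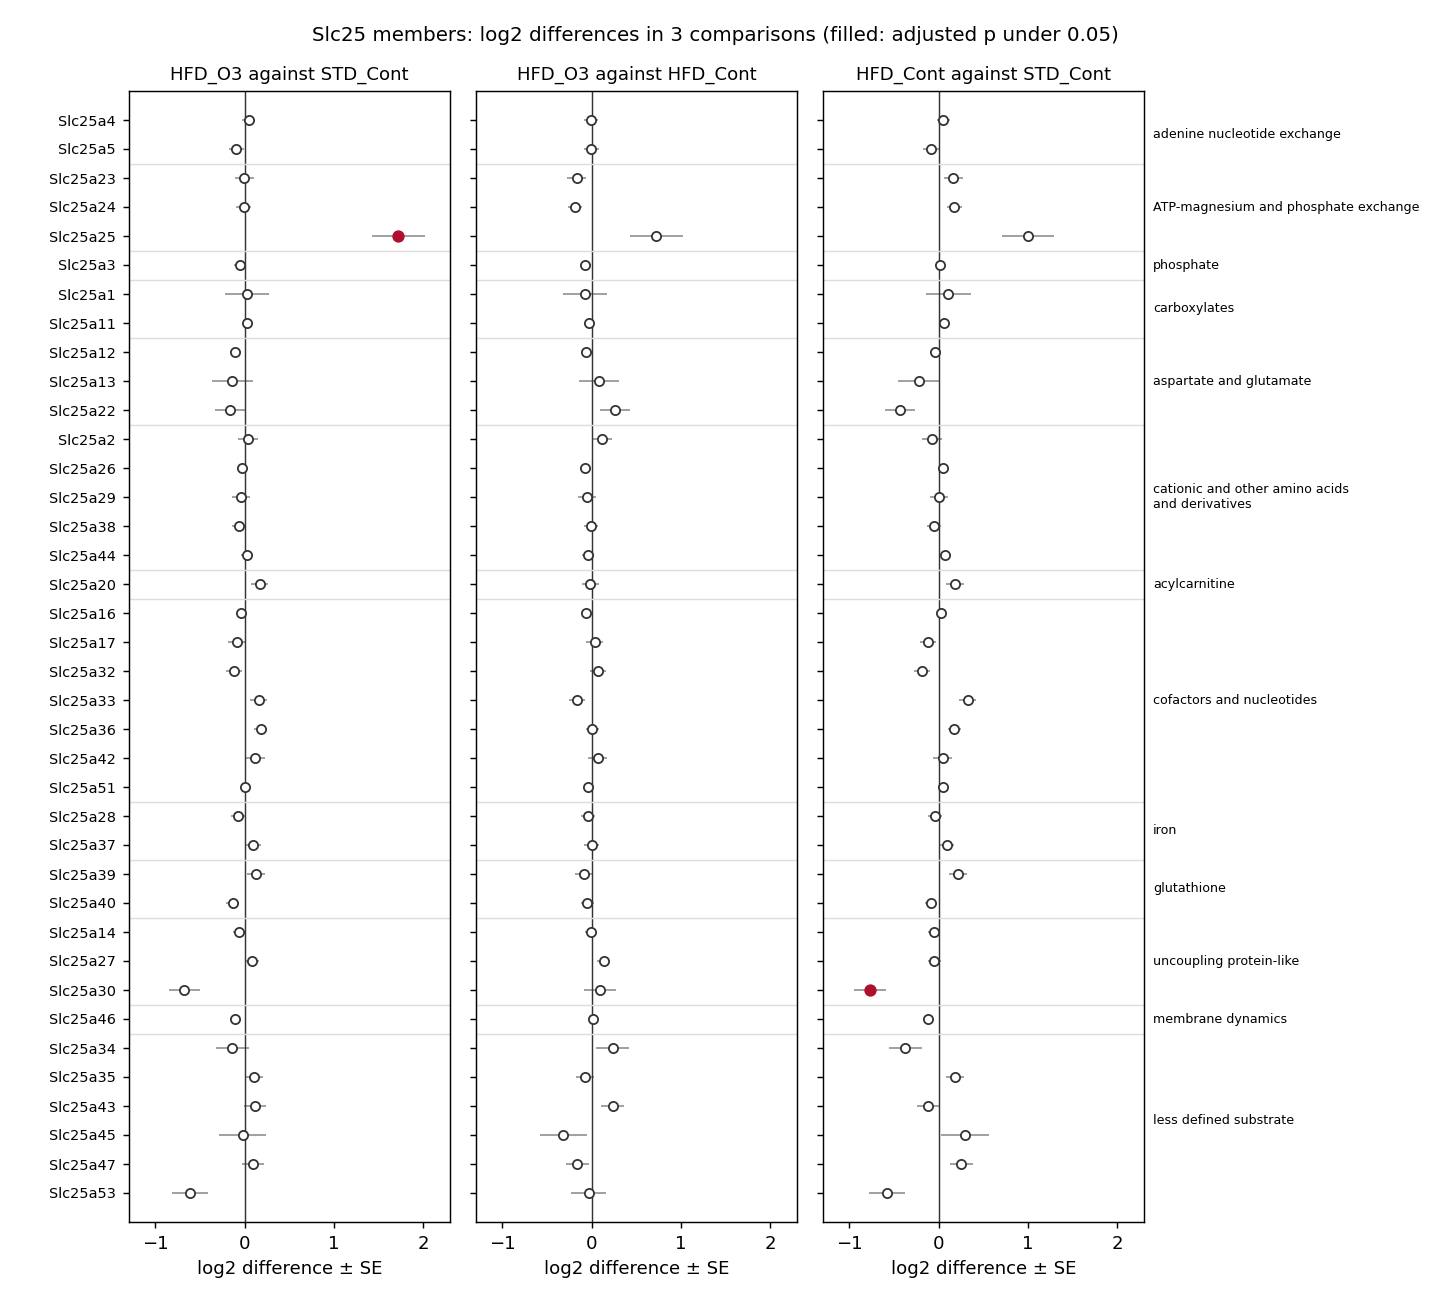
Log2 difference with its SE for 38 of the 39 measured Slc25 members (ordered by role) in the 3 comparisons (panels), 8 arrays a group. Filled points passed the test: Slc25a25 at 1.72 for HFD_O3 against STD_Cont and Slc25a30 at -0.77 for HFD_Cont against STD_Cont. Most open points lie within 0.25 of 0.

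Slc25a25 gave the largest change of any member. This calcium-regulated carrier exchanges ATP-magnesium for phosphate. On its brightest probe (mm9 chr2:32270275-32270334, minus strand) the 8 HFD_O3 arrays read 1.82, 2.32, 2.86, 2.08, 2.17, 2.28, 3.47 and 1.35. The 8 HFD_Cont arrays read 2.13, 1.35, 1.42, 1.20, 1.67, 2.14, 1.05 and 1.61. The 8 STD_Cont arrays read 0.26, 0.64, 0.07, -0.40, 2.22, 0.59, 0.45 and 0.76. All STD_Cont arrays but replicate 5 lay below every array of both high fat groups, and that replicate lay above every HFD_Cont array. Slc25a25 averaged 2.29 ± 0.64 in HFD_O3 muscle, 1.57 ± 0.40 in HFD_Cont muscle and 0.57 ± 0.76 in STD_Cont muscle (SD, n = 8 each).

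The change for HFD_O3 against STD_Cont was 1.72 ± 0.30 (SE), a 3.30-fold rise, with an adjusted p of 0.00741 from limma, and 8 of 8 HFD_O3 arrays lay above the STD_Cont median. For HFD_Cont against STD_Cont it was 0.999 ± 0.30 with an adjusted p of 0.0654 from limma, which missed the threshold. There 8 of 8 HFD_Cont arrays lay above the STD_Cont median. The share of all names with 8 of 8 arrays above a reference median was not computed. For HFD_O3 against HFD_Cont the Slc25a25 change was 0.72 ± 0.30 (95% interval 0.11 to 1.33), with an adjusted p of 0.651 from limma. Within slides 1, 2 and 3 the change for HFD_O3 against STD_Cont was 1.89, 1.55 and 1.81. With the white adipocyte marker score as a covariate the change was 1.68 and passed (adjusted p = 0.00576, limma). Without the 6 arrays highest in that score it was 1.73 and did not pass (adjusted p = 0.0951, limma), and there 1 of all 19937 names passed. With the covariate the change for HFD_Cont against STD_Cont was 1.19 and passed too (adjusted p = 0.0353, limma).

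The other probes of Slc25a25 that passed the filter differed in the same direction. On A_51_P193176 the HFD_O3 arrays ran from -0.27 to 1.61, the HFD_Cont arrays from -0.61 to 0.44 and the STD_Cont arrays from -2.31 to -0.48. HFD_O3 and STD_Cont did not overlap there, which 0.144% of all kept probes showed in that comparison. They overlapped on the brightest probe and on A_55_P2046198, where HFD_O3 8 read -0.28 and STD_Cont 5 read -0.22. When every kept probe was tested on its own, A_51_P193176 rose by 1.87 for HFD_O3 against STD_Cont (adjusted p = 0.000679, limma; 0.551% of kept probes passed). It also rose by 1.17 for HFD_Cont against STD_Cont (adjusted p = 0.0168, limma; 2.67% passed). A_55_P2046198 rose by 1.87 and 1.11 in the same comparisons (adjusted p = 0.00152 and 0.0273, limma). So Slc25a25 missed the threshold in HFD_Cont muscle on the probe that stood for it and passed on the other 2, where replicate 5 was also the highest STD_Cont array.

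**Figure D2:**
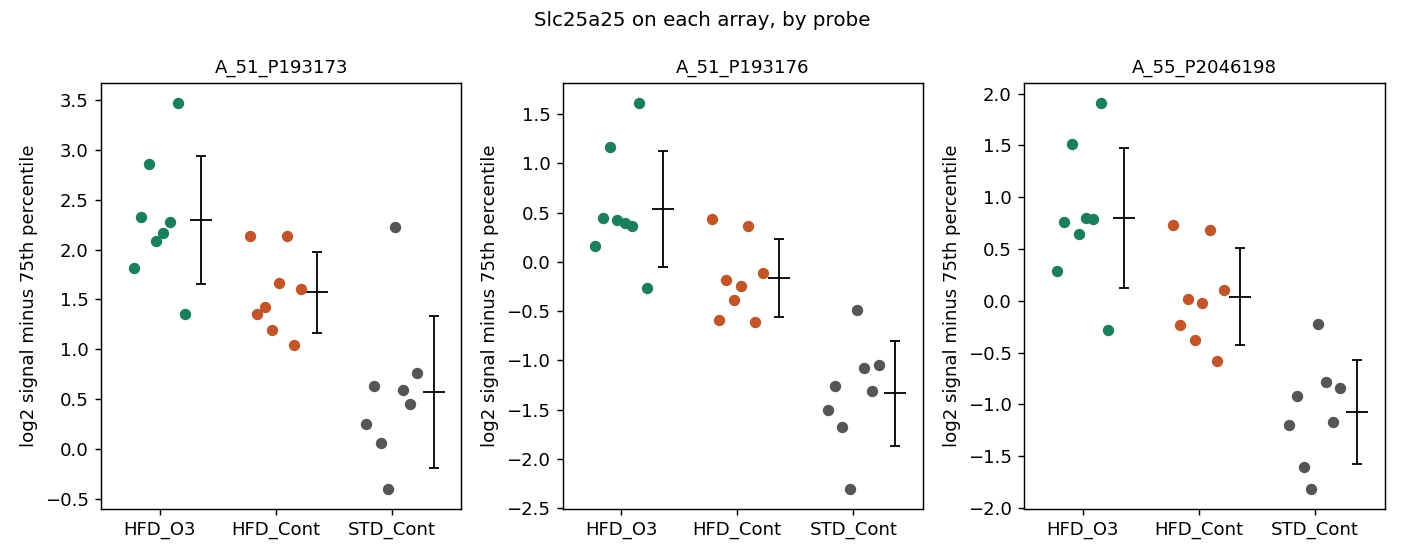
Slc25a25 signal (log2 minus the array's 75th percentile) on every array for its 3 kept probes. Points are arrays, bars are the mean ± SD of 8 arrays a group. On each probe HFD_O3 lies highest and STD_Cont lowest on average, and STD_Cont replicate 5 is the highest STD_Cont array (2.22 on A_51_P193173).

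Its relatives with calcium-binding domains did not pass the test. Slc25a24 differed by -0.01 for HFD_O3 against STD_Cont, -0.19 for HFD_O3 against HFD_Cont and 0.18 for HFD_Cont against STD_Cont. Slc25a23 differed by -0.01, -0.17 and 0.16 in the same order. Their signs for HFD_O3 against HFD_Cont were opposite to that of Slc25a25. Slc25a41, the family's short form without the calcium-binding domain, was too dim to measure, being well above background on at most 1 of 24 arrays.

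Slc25a30 was the member that fell. It encodes a relative of the uncoupling proteins first described in kidney. On its brightest probe (mm9 chr14:76161603-76161662, minus strand) the HFD_O3 arrays read -1.47, -0.91, -0.28, -1.64, -0.76, -0.95, -0.43 and -0.64. The HFD_Cont arrays read -1.13, -1.05, -1.14, -0.98, -1.25, -0.53, -1.299 and -0.44. The STD_Cont arrays read -0.51, 0.30, -0.38, 0.01, -0.39, -0.37, -0.10 and -0.22. Of the HFD_Cont arrays, only replicate 8 entered the range of the STD_Cont arrays, and 0 of 8 lay above their median.

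The change for HFD_Cont against STD_Cont was -0.77 ± 0.17 (SE), or 0.587 times the STD_Cont level, with an adjusted p of 0.0215 from limma. HFD_O3 against STD_Cont gave -0.68 ± 0.17 and an adjusted p of 0.0809 from limma, which missed the threshold. HFD_O3 against HFD_Cont gave 0.09 ± 0.17 (95% interval -0.27 to 0.45). The second kept probe, A_51_P354652, fell by 0.86 in HFD_Cont muscle when tested on its own (adjusted p = 0.0234, limma). Within slides 1, 2 and 3 the HFD_Cont change was -1.001, -0.87 and -0.52. With the adipocyte score as a covariate it was -0.72 and passed (adjusted p = 0.0449, limma). It was -0.75 with each row of each slide as a block and -0.74 without the 6 arrays highest in that score, and neither passed (adjusted p = 0.129 and 0.206, limma). Without those 6 arrays 0 of all names passed in this comparison.

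**Figure D3:**
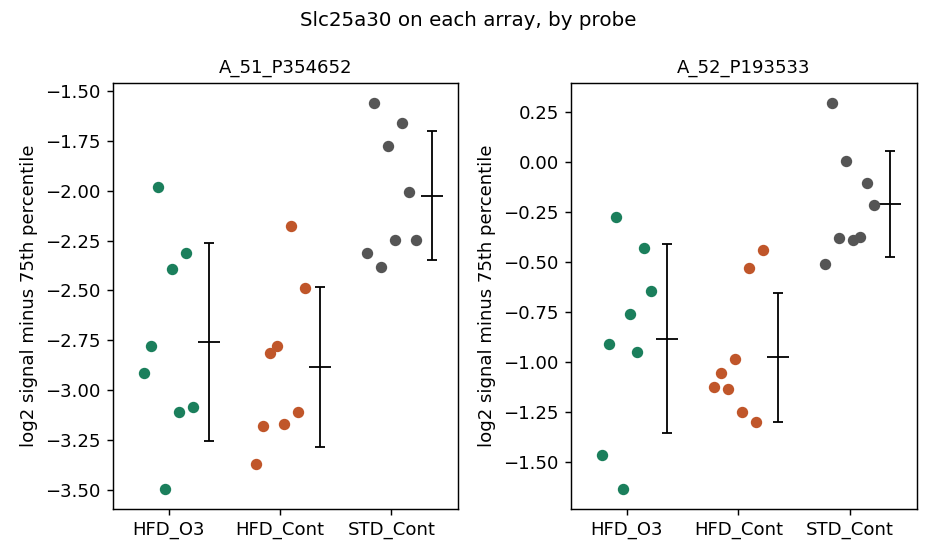
Slc25a30 signal (log2 minus the array's 75th percentile) on every array for its 2 kept probes. Points are arrays, bars the mean ± SD of 8 arrays a group. On A_52_P193533 the group means are -0.88 for HFD_O3, -0.98 for HFD_Cont and -0.21 for STD_Cont.

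The other uncoupling protein-like members differed little. Slc25a14 differed by -0.06 for HFD_O3 against STD_Cont and by -0.06 for HFD_Cont against STD_Cont. Slc25a27 averaged 1.31 ± 0.16 in HFD_O3 muscle, 1.18 ± 0.12 in HFD_Cont muscle and 1.23 ± 0.14 in STD_Cont muscle (SD, n = 8 each). Neither passed the test.

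Among the energy carriers, Slc25a4, the muscle form of the adenine nucleotide carrier, averaged 10.86 ± 0.19 in HFD_O3 muscle, 10.87 ± 0.15 in HFD_Cont muscle and 10.82 ± 0.10 in STD_Cont muscle. Its 95% intervals were -0.11 to 0.20 for HFD_O3 against STD_Cont, -0.17 to 0.15 for HFD_O3 against HFD_Cont and -0.10 to 0.21 for HFD_Cont against STD_Cont. Slc25a5, the more widely expressed form, differed by -0.09 for HFD_O3 against STD_Cont and by -0.09 for HFD_Cont against STD_Cont. Slc25a3, the phosphate carrier, differed by -0.05 and 0.02 in these comparisons. None passed, and Slc25a31, the form of the testis, was well above background on 0 of 24 arrays. Slc25a20, the carnitine-acylcarnitine carrier, averaged 2.34 ± 0.22 in HFD_O3 muscle, 2.36 ± 0.21 in HFD_Cont muscle and 2.17 ± 0.17 in STD_Cont muscle. Its changes of 0.17 ± 0.10 and 0.18 ± 0.10 (SE) against STD_Cont did not pass (adjusted p = 0.557 and 0.369, limma).

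The carboxylate carriers did not pass in any comparison. Slc25a11, which exchanges oxoglutarate for malate, differed by 0.03 for HFD_O3 against STD_Cont and 0.06 for HFD_Cont against STD_Cont. Slc25a1, the citrate carrier, differed by 0.03 ± 0.25 and 0.11 ± 0.25 (SE), with a wide spread within groups. Slc25a10, the dicarboxylate carrier, has 1 probe here, well above background on 0 of 24 arrays. Slc25a21, the oxodicarboxylate carrier, was also below the filter.

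Of the amino acid carriers, Slc25a22, a glutamate carrier, had the smallest p in HFD_Cont muscle. It averaged 0.35 ± 0.33 in HFD_O3 muscle, 0.09 ± 0.43 in HFD_Cont muscle and 0.52 ± 0.26 in STD_Cont muscle, and its HFD_Cont change of -0.43 ± 0.17 (SE) did not pass (adjusted p = 0.173, limma). Slc25a12, the aspartate-glutamate carrier of muscle and brain, differed by -0.10 for HFD_O3 against STD_Cont and by -0.04 for HFD_Cont against STD_Cont, and Slc25a13, its liver-type relative, by -0.14 and -0.22. The 5 measured carriers of cationic and other amino acids and derivatives ranged from -0.06 to 0.04 for HFD_O3 against STD_Cont and from -0.08 to 0.07 for HFD_Cont against STD_Cont. Slc25a38, a glycine carrier, had the smallest p of these for HFD_O3 against STD_Cont, with a difference of -0.06. Slc25a15, an ornithine carrier, and Slc25a18, a glutamate carrier, were below the filter.

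Among carriers of cofactors and nucleotides, Slc25a33, a pyrimidine nucleotide carrier, came nearest to the threshold. Its HFD_O3 arrays ran from 2.58 to 3.13 (median 3.04), its HFD_Cont arrays from 2.95 to 3.37 (median 3.10) and its STD_Cont arrays from 2.47 to 3.16 (median 2.81). Only STD_Cont replicate 6 entered the HFD_Cont range, and the HFD_Cont change was 0.32 ± 0.09 (SE; adjusted p = 0.0524, limma). HFD_O3 against STD_Cont gave 0.15 ± 0.09.

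Slc25a36, a relative of Slc25a33, differed by 0.18 ± 0.07 for both high fat groups against STD_Cont (adjusted p = 0.315 for HFD_O3 and 0.208 for HFD_Cont, limma). All 8 carriers of this class were measured, and 0 passed in each comparison.

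The glutathione carriers Slc25a39 and Slc25a40 differed by 0.13 and -0.14 for HFD_O3 against STD_Cont. Slc25a39 was higher than the STD_Cont median on 8 of 8 HFD_Cont arrays, with a change of 0.22 ± 0.10 (SE; adjusted p = 0.257, limma). The share of all names with 8 of 8 arrays on the same side of a reference median was not computed. Slc25a46, an outer membrane member tied to mitochondrial shape, differed by -0.11 for HFD_O3 against STD_Cont and by -0.12 ± 0.04 (SE) for HFD_Cont against STD_Cont (adjusted p = 0.262 and 0.0982, limma), and 0 of 8 HFD_Cont arrays lay above the STD_Cont median.

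Of the members with less defined substrates, Slc25a53 had the largest difference. Its HFD_O3 arrays ran from -3.001 to -2.67, its HFD_Cont arrays from -3.11 to -2.65 and its STD_Cont arrays from -2.82 to -0.64, where the highest was replicate 3. The changes of -0.61 ± 0.20 and -0.58 ± 0.20 (SE) against STD_Cont did not pass (adjusted p = 0.184 and 0.112, limma). Without STD_Cont replicate 3 they were -0.39 and -0.35 (adjusted p = 0.0735 and 0.0616, limma). Slc25a43 differed by 0.11 for HFD_O3 against STD_Cont and by 0.23 ± 0.13 (SE) for HFD_O3 against HFD_Cont. The latter did not pass (unadjusted p = 0.0760, limma). There 8 of 8 HFD_O3 arrays lay above the HFD_Cont median, a pattern whose share over all names was not computed. Slc25a48 and Slc25a54 were below the filter.

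Probes of 1 gene did not always move together, and 24 members have more than 1 kept probe. Slc25a37 encodes the first mitoferrin, which brings iron into mitochondria and is best known from red cell precursors. Its brightest probe, A_51_P343429, ran from 2.10 to 2.54 on HFD_O3 arrays, from 2.13 to 2.64 on HFD_Cont arrays and from 1.97 to 2.45 on STD_Cont arrays, and was well above background on all 24. The groups overlapped almost fully on it.

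The probe printed above, A_55_P2032445, behaved otherwise. It read -1.24, -1.64, -1.70, -4.15, -3.95, -1.80, -3.76 and -1.71 on the HFD_O3 arrays. On the HFD_Cont arrays it read -1.65, -1.47, -1.69, -0.82, -0.68, -1.36, -1.35 and -0.80. On the STD_Cont arrays it read -4.16, -1.43, -1.83, -4.66, -3.46, -0.82, -1.02 and -2.81. HFD_O3 replicates 4, 5 and 7 and STD_Cont replicates 1, 4, 5 and 8 lay below every HFD_Cont array by more than 1 log2 unit, and the others lay within or near the HFD_Cont range.

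The other probe to behave so, A_52_P622941, is annotated to Slc25a37 by the array design but lies 177809 bases from A_55_P2032445, on the minus strand at mm9 chr14:70080666-70080725. Its HFD_O3 arrays ran from -5.78 to -2.38, its HFD_Cont arrays from -2.75 to -1.28 and its STD_Cont arrays from -5.88 to -1.78. Its 7 lowest arrays were the same 3 HFD_O3 and 4 STD_Cont arrays. It was well above background on 5 of 8 HFD_O3, 8 of 8 HFD_Cont and 4 of 8 STD_Cont arrays. It thus met the filter of 6 of 8 arrays through HFD_Cont only, the group where its median was highest. Comparisons with HFD_Cont on A_52_P622941 draw on the values that kept it, so they are no support for a difference. Tested over the groups, A_52_P622941 differed by 0.14 for HFD_O3 against STD_Cont, -1.50 for HFD_O3 against HFD_Cont and 1.65 for HFD_Cont against STD_Cont. A_55_P2032445 differed by 0.03, -1.26 and 1.29 in the same order. None passed (adjusted p from limma of 0.167 or more over all kept probes). A_55_P2032445 was well above background on 7 of 8 HFD_O3, 8 of 8 HFD_Cont and 6 of 8 STD_Cont arrays. On arrays where a probe was not well above background its level has only a bound, so the sizes of these differences are not measured. Because the arrays fall into separate clusters on these probes, no correlation between them is given.

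**Figure D4:**
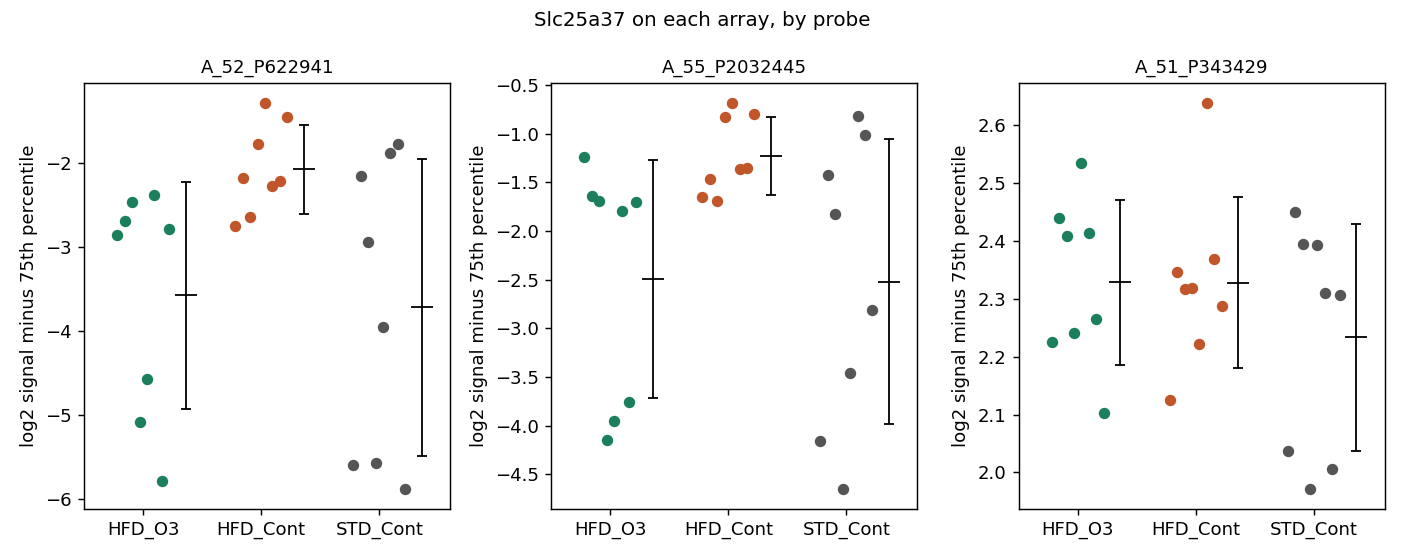
Signal of the 3 kept Slc25a37 probes (log2 minus the array's 75th percentile) on every array. Points are arrays, bars the mean ± SD of 8 arrays a group. On A_52_P622941 and A_55_P2032445, 3 HFD_O3 and 4 STD_Cont arrays lie below all the others and 0 HFD_Cont arrays do, and on A_51_P343429 all arrays lie between 1.97 and 2.64.

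Slc25a12 and Slc25a35 also had probes that differed in sign. Slc25a12 has 6 kept probes, of which A_52_P1196751 differed by 0.34 for HFD_O3 against STD_Cont (unadjusted p = 0.00437, limma, adjusted p = 0.174) while the brightest differed by -0.10. Slc25a35 differed by -0.53 for HFD_O3 against HFD_Cont on A_55_P2736954 (unadjusted p = 0.00728, limma, adjusted p = 0.631), by -0.07 on its brightest probe and by 0.13 on the third. Slc25a14 differed by -0.76 for HFD_O3 against STD_Cont on A_55_P2913066 (unadjusted p = 0.00381, limma, adjusted p = 0.163). On its bright probe it differed by -0.06, with the same sign. A_55_P2913066 is dim, well above background on 11 of 24 arrays. That count is too low for any pair of groups to have met the filter. The comparison may thus draw on the values that kept the probe, so it is no support for a difference. On arrays where A_55_P2913066 was not well above background its level has only a bound, so the size is not measured. A_55_P2913066 was chosen after its values were seen.

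Marker signal of other fibre and cell types varied between arrays, so members were set against 2 scores, one of 7 slow fibre markers and one of 7 white adipocyte markers, each the mean deviation of its markers on an array. Of the 7 slow fibre markers and of 11 white adipocyte markers on the longer list, 0 passed the test in any comparison. Of 7 endothelial markers, 1 passed: Kdr, a receptor for vascular growth factor, rose in HFD_Cont against STD_Cont muscle by 0.45 ± 0.10 (SE; adjusted p = 0.0210, limma), and its part in the members' values was not tested. The white adipocyte score ran from -1.74 to 2.17 on HFD_O3 arrays, from -1.62 to 2.85 on HFD_Cont arrays and from -1.89 to 1.66 on STD_Cont arrays. The slow fibre score ran from -0.65 to 0.48, from -3.91 to 1.27 and from -0.58 to 1.49 in these groups. The lowest slow fibre score and the highest adipocyte score both belonged to HFD_Cont replicate 4. The median change of the 7 adipocyte score markers was -0.14 for HFD_O3 against STD_Cont, -1.15 for HFD_O3 against HFD_Cont and 0.97 for HFD_Cont against STD_Cont. Over the 11 markers of the longer list, which adds Fabp4, Lpl, Car3 and Cd36, it was 0.05, -0.94 and 0.28 in the same order. The median change of the 7 slow fibre markers was -0.26, 0.27 and -0.52. In whole muscle RNA, more cells of a type and more RNA per cell cannot be told apart.

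Slc25a1, whose citrate export feeds fatty acid synthesis, was the 1 member of 39 (2.56%) whose signal passed the test against the adipocyte score, adjusted over all names, beside 0.775% of the 19874 names that are not markers of the score. Before adjustment 10.3% of members and 8.29% of names had p under 0.05. After centring on group means its Pearson r over 24 arrays was 0.79 (permutation p = 6e-05, adjusted p = 0.0113) and its Spearman rho 0.73 (permutation p = 0.00019). Without the farthest arrays, HFD_Cont 4 and HFD_O3 4, r was 0.67, and centred on slides as well it was also 0.67. Neither passed when adjusted over the 39 members (adjusted p = 0.0573 and 0.377, permutation test). Within slides 1, 2 and 3, r without centring on group means was 0.81, 0.88 and 0.06. The dimmer kept probe of Slc25a1 gave r = 0.33. Slc25a25 and Slc25a30 had r of -0.47 and -0.21 with the adipocyte score and 0.02 and -0.01 with the slow fibre score, and none of these passed.

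Of the 39 members, 1 (2.56%) passed against the slow fibre score, adjusted over all names, beside 1.62% of the names that are not its markers. Before adjustment 20.5% of members and 13.5% of names had p under 0.05. Slc25a13 gave r = 0.64 (permutation p = 0.00029, adjusted p = 0.0257) and rho = 0.71 (permutation p = 0.0003). Its r was 0.64 without HFD_Cont 4 and STD_Cont 7, and 0.50 when centred on slides as well as groups. Within the 3 slides, r without centring on group means was 0.69, 0.67 and 0.74. Slc25a17, a carrier of peroxisomes, gave r = 0.65 (permutation p = 0.00262) and did not pass (adjusted p = 0.0988). Its rho was 0.56 (permutation p = 0.00698), and its r was 0.51 without those 2 arrays and 0.35 when centred on slides.

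**Figure D5:**
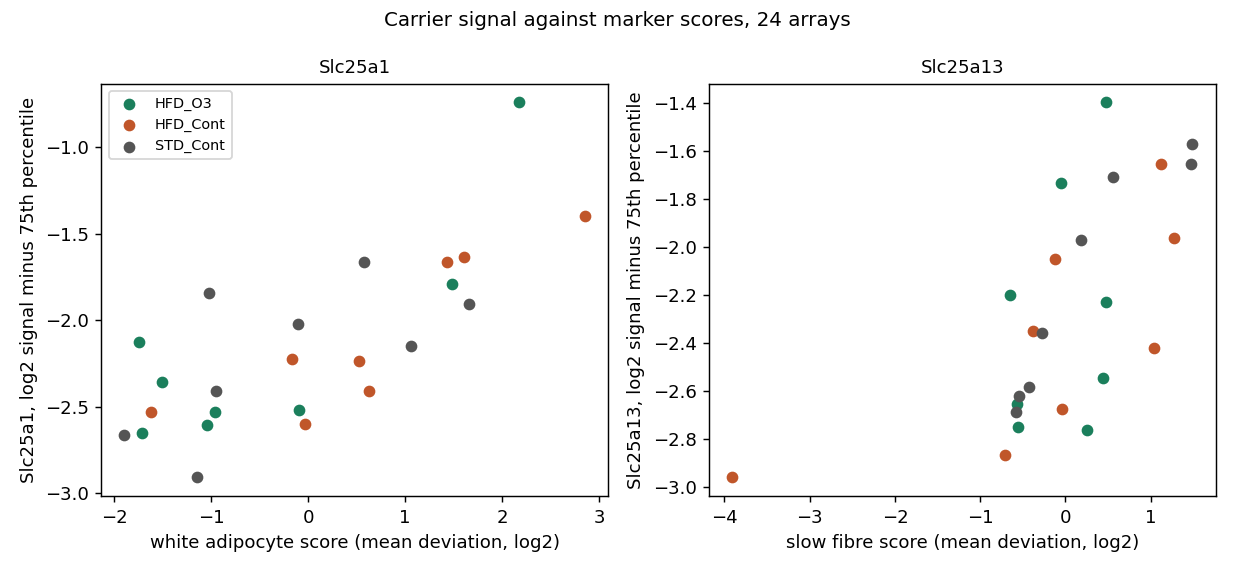
Signal (log2 minus the array's 75th percentile) of Slc25a1 against the white adipocyte score and of Slc25a13 against the slow fibre score on 24 arrays, coloured by group. HFD_O3 replicate 4 has the highest Slc25a1 value (-0.74), and HFD_Cont replicate 4 has the lowest slow fibre score (-3.91).

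Some pairs of members varied together within groups, although the median r over all 741 pairs was 0.06. Of 741 pairs, 10 passed (permutation test of Pearson's r over 24 arrays centred on group means, adjusted over the pairs), all with positive r. By Spearman's rho 6 of the 10 also passed and 4 did not, and without the 2 farthest arrays r of the 10 ran from 0.49 to 0.78. The share among pairs of other names was not computed. Slc25a20 and Slc25a34 had r = 0.82 (p = 1e-05, the smallest these permutations can give, adjusted p = 0.00741) and rho = 0.78 (permutation p = 8e-05, adjusted p = 0.0296). Without the 2 farthest arrays r was 0.75, and centred on slides as well it was 0.79. Slc25a22 and Slc25a34 had r = 0.79 (permutation p = 5e-05, adjusted p = 0.0123) and rho = 0.79 (permutation p = 8e-05, adjusted p = 0.0296), with r = 0.78 without the 2 farthest arrays and 0.79 when centred on slides. Slc25a25 was in 0 of the 10 pairs. The within-group SD had a median of 0.18 over the members and 0.18 over all names, and was 0.62 for Slc25a25, the widest, and 0.06 for Slc25a46, the narrowest of the members.

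Of the carrier proteins listed outside the numbered names, 4 were measured: Ucp2, Ucp3, Mtch1 and Mtch2. Ucp3, the uncoupling protein of muscle, fell in HFD_Cont against STD_Cont muscle by 0.68 ± 0.16 (SE; adjusted p = 0.0240, limma). It averaged 1.73 ± 0.33 in HFD_O3 muscle, 1.37 ± 0.21 in HFD_Cont muscle and 2.05 ± 0.425 in STD_Cont muscle (SD, n = 8 each), and the other two comparisons did not pass. The Ucp3 call was lost without HFD_Cont 5 (-0.63, adjusted p = 0.0533, limma) or STD_Cont 3 (-0.64, adjusted p = 0.0522). It was also lost with no filter, the row block, the adipocyte covariate (-0.60, adjusted p = 0.0504), within slides and without the 6 arrays, always with a negative change. Ucp2, Mtch1 and Mtch2 did not pass in any comparison, and Ucp1, the uncoupling protein of brown fat, was below the filter. Of the listed proteins that carry these carriers from the outer membrane through the TIM22 complex, 10 were measured and 0 passed in each comparison. The smallest p of these for HFD_Cont against STD_Cont was that of Timm10, a chaperone of the intermembrane space, with a difference of -0.19, and the smallest for HFD_O3 against STD_Cont that of Tomm20, an import receptor, with a difference of -0.09. Of 26 other transport genes of mitochondria, 1 rose in HFD_Cont against STD_Cont muscle and 0 passed otherwise. It was Sfxn3, a sideroflexin, a family that carries serine, with a change of 0.55 ± 0.10 (SE; adjusted p = 0.00865, limma). In HFD_O3 against STD_Cont muscle Sfxn3 differed by 0.40 (adjusted p = 0.0520, limma) and Vdac2, an outer membrane channel, by -0.17 (adjusted p = 0.0959, limma).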

How the data were processed

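The members, role classes and lists were chosen with earlier results of these data known. Per the file headers, version 10.10.1.1 of the Agilent Feature Extraction software read the scans, and the probe map uses mm9. Each deposited scanner file gives intensity by spot, background-subtracted and detrended by that software and not normalized between arrays. The authors' deposited value table is in log2 units and was used as an alternative; its normalization is not given in the sources used here beyond limma, named in the submitters' processing notes. Over its 30124 probes each column followed that array's log2 median signal (correlation at least 0.9996, column medians 7.69 to 7.70).

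From the scanner files, spots marked as outliers were dropped, repeats of a probe averaged, and the 75th percentile of all probes but controls subtracted from log2 processed intensity on each array (signal 234 to 430). Kept were 29245 probes well above background on at least 6 of 8 arrays of 1 group, and the brightest probe stood for each name. RefSeq accessions matched 81 of the 104 member probes, all 81 with the same symbol. The share of spots well above background was 52.0 to 60.7% per array, with 0 member spots saturated. The arrays lay on 3 slides of 8, with 2 or 3 of each group, and were scanned on 1 day. The number of arrays limits the precision. The labels number 8 replicates a group and do not say whether each array is a separate RNA preparation. Only the series' design text gives each array as a separate mouse.

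All 24 arrays entered 1 fit in limma 3.58.1 (R 4.3.3; lmFit, eBayes, two-sided), with Benjamini-Hochberg adjustment over 19937 names; the fit was tested on simulated data. Relations used 100000 permutations within groups, two-sided, adjusted over all names without missing values, or over 741 pairs. Adjusted over the 39 members, as planned for the adipocyte score only, 1 passed for that score and 2 for the slow fibre score. Named members were those past the threshold, the 8 smallest p in each comparison, those whose kept probes disagreed in sign with 1 at an unadjusted p under 0.05, 10 carriers fixed by role and 1 of each role class. The values of 1 measured member are not reported here, although it counts in every total. Alternatives were normexp, quantile and median scaling, the deposited table, 2 other filters, the mean over probes, slide and replicate blocks, each slide alone, 2 groups only and each array left out. Added after seeing the data were array row as a block, the adipocyte score as a covariate, removal of the 6 arrays highest in that score, removal of HFD_O3 1 and 7, the slow fibre relation, the adjustment of relations over all names and the member pairs. Tables and figures used pandas 2.3.3 and matplotlib 3.10.9.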

Additional observations from a re-analysis of the deposited data

Results flagged for a closer look

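In each group of 8 arrays, the highest or lowest array was marked where its gap to the next one took up more of the group's range than Dixon's 95% limit allows. For the 39 measured members this marked 14 of 117 groups (11.97%), and over all measured names 9.86% of groups. Chance marks about 1 in 20. With the other kept probes of the members past the threshold and of Slc25a37, it was 14 of 132 groups. Slc25a45 read 0.87 on HFD_Cont 5, with the next HFD_Cont array at -1.46. Slc25a25 read 2.22 on STD_Cont 5, with the next STD_Cont array at 0.76. Slc25a53 read -0.64 on STD_Cont 3, next to -2.05. Slc25a1 read -0.74 on HFD_O3 4, next to -1.79. Slc25a43 read -2.94 on HFD_Cont 4 and -2.55 on STD_Cont 4, each the highest of its group, and their white adipocyte scores were 2.85 and 1.06. HFD_Cont 7 was the highest for Slc25a47 (0.25) and the lowest for Slc25a27 (0.92) and Slc25a28 (3.22). The other marked arrays were HFD_O3 7 for Slc25a27 (1.66) and HFD_O3 1 for Slc25a38 (0.16). Slc25a32 was marked on HFD_Cont 3 (0.52), Slc25a35 on HFD_Cont 6 (-1.59) and Slc25a46 on STD_Cont 7 (3.96).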

How the results depend on the processing

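Over 42 other settings the Slc25a30 change in HFD_Cont against STD_Cont muscle kept its sign (-1.001 to -0.52) and passed in 36, and the Slc25a25 change in HFD_O3 against STD_Cont muscle kept its sign (1.503 to 1.96) and passed in 38, both in 24 of 24 fits that left out an array. HFD_O3 against HFD_Cont had 0 members in each of these settings.

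The count of members for HFD_Cont against STD_Cont, 1 as reported, was 2 in the deposited table, with the filter on every array, as the mean over probes and with the adipocyte score as a covariate, 3 with only the 2 groups, 4 without HFD_O3 1 and HFD_O3 7, and 0 with no filter, within each slide, with each row of each slide as a block and without the 6 adipocyte-rich arrays. Leaving out 1 array gave 1 to 3: 3 without HFD_O3 7 and 2 without HFD_O3 1, HFD_Cont 3, STD_Cont 5 or STD_Cont 6. For HFD_O3 against STD_Cont it was 0 within each slide and without the adipocyte-rich arrays, and 1 to 2 with 1 array left out, 2 without HFD_O3 3 or HFD_O3 7, when Slc25a30 passed too.

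The carriers outside the numbered names went to 0 with no filter, within slides, with the row block, with the covariate and without the adipocyte-rich arrays, and to 0 to 1 with 1 array left out (0 without HFD_Cont 5 or STD_Cont 3). Other transport went to 2 with quantile scaling, the deposited table, the every-array filter and without HFD_O3 1 and 7, to 0 within slides and without the adipocyte-rich arrays, and to 1 to 3 with 1 array left out (3 without HFD_O3 7, 2 without HFD_O3 2 or 8). Carrier import stayed at 0. Members related to the adipocyte score, adjusted over the members, went from 1 to 0 without the 2 farthest arrays and when centred on slides. Within slides and without 6 arrays fewer arrays entered the fit; elsewhere the cause was not tested.

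Over all names, 286 were higher and 295 lower for HFD_Cont against STD_Cont and 81 and 38 for HFD_O3 against STD_Cont. Median scaling gave 72 and 105, and 49 and 13. No filter gave 74 and 61, and 40 and 6. The row block gave 39 and 34, and 32 and 15. The 2 groups alone gave 485 and 681, and 31 and 5. The covariate gave 179 and 178 for HFD_Cont. With 1 array left out, HFD_Cont ran between 98 and 84 without STD_Cont 1 and 406 and 571 without HFD_O3 7. For HFD_O3, leaving out HFD_O3 7 turned the balance, to 125 higher and 218 lower, and leaving out HFD_O3 1 and 7 gave 75 and 99. Without the 6 adipocyte-rich arrays HFD_Cont had 0 calls and HFD_O3 had 1, higher. The replicate number as a block left 1, 0 and 1 members. It is not a pairing in the labels, and same-numbered arrays correlated between -0.15 and 0.36, so it was not used.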
